A study of Mus musculus with 4 samples.

Results

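Interferon-stimulated genes are the genes that a cell switches on when it senses interferon or viral nucleic acid. Of 43 such genes listed, 41 had a row among the 32285 genes of the count matrices, found by their symbols, and only Mx1 and Mx2 had none. The list was drawn up with the difference between the arms in the feeder cells of these same libraries in view, so that difference is described here and not tested. Single-cell transcriptomes came from primary mouse spermatogonial cultures, in which Thy1-sorted testis cells of 3 male mice, taken at postnatal day (PND) 6, grew on a feeder layer of the mouse embryonic fibroblast line STO. The vehicle arm received PBS, the EV arm 1 μg/mL of extracellular vesicles (EVs) from testes of PND7 mice, and both arms were treated for 3 days. Of 2 libraries per arm, both vehicle libraries and EV 1 entered with their count matrices, and expression in EV 2 was not analysed here. With 1 EV library, no difference between the arms has a replicate check.

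Interferons bind receptors that signal through Jak kinases to transcription factors. Stat2 and Irf9 act in a complex that binds the interferon-stimulated response element (ISRE), and the response to interferon gamma runs through the gamma-activated site (GAS). The products of the genes switched on in this way bind foreign RNA, stop translation, tether virus particles, process antigen and, in part, feed back on the pathway. Cells can hold a low level of some of these RNAs without added interferon.

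A cell was called a feeder cell when it had at least 2 UMIs (unique molecular identifiers, each standing for 1 captured RNA molecule) of Col1a1, Col1a2, Sparc and Dcn in sum and more of these than of Dazl, Tex15, Stk31 and Epcam, and a germ cell in the reverse case. Feeder cells numbered 2346, 2477 and 2510 in vehicle 1, vehicle 2 and EV 1, which is 28.4%, 28.7% and 52.5% of the kept cells. Germ cells numbered 4420, 4780 and 226 (53.5%, 55.3% and 4.73%), and the remaining cells were in neither class. The median depth of feeder cells was 3621, 3899 and 2448 UMIs, and 11 of 12 fibroblast markers that the rule did not use were measured with at least 50 UMIs in them. Among 9 macrophage markers, summed at 15.3, 11.2 and 23.7 UMIs per 1000000 UMIs of the class (CPM), C1qb was at 0 in all feeder sums and C1qa in 2 of 3. Ptprc, the pan-leukocyte marker, stood at 0.947, 0.557 and 0.883 CPM. Only Cd68 and Lyz2 of the 9 reached 50 UMIs in all, Cd68 with 6.74, 6.12 and 17.8 CPM (more than 2-fold higher in EV 1, ratio to the pooled vehicle libraries 2.78, 95% interval 2.15 to 3.59) and Lyz2, in the other direction, with 6.42, 2.60 and 2.21 CPM (ratio 0.503, 95% interval 0.27 to 0.875). The metallothioneins Mt1 and Mt2 summed to 3038, 2929 and 10567 CPM in feeder cells, and the feeder cells were therefore also split on them, as described further on. The 4 germ cell genes of the rule summed to 39.6, 35.0 and 3.53 CPM in feeder cells, and the part of germ cell RNA in the results was not tested.

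The promoters were searched for these response elements. The 250 bases before the RefSeq start (build GRCm38.p6) were matched for 34 of the 43 genes. The missing entries were Usp18, Mx1, Mx2, Zbp1, Rtp4, Ifi27, Dhx58, Parp9 and Parp14. The 34 genes gave 38 windows, since Gbp3, Irf1, Irf9 and Ifit2 had more than 1 start. For 33 of the 38, the bases after the start were found in a GENCODE transcript of the gene. A gene, of the list or of all genes, was counted as holding an element when any of its windows did. The ISRE core (GAAA, any 2 bases, GAAA), searched on both strands, was found in 13 of these 34 genes (38.2%), against 3.46% of all 27025 genes with such a window. The GAS TTCNNNGAA, whose reverse complement has the same letters, was found in 7 of 34 (20.6%), against 8.13% of all genes, and 3 genes held both. Because the genes were listed as interferon targets, this is a description of the list. For Gbp3 and Irf1 the window with a match was taken, and their other window held none. The 8 windows shown were chosen with the values known. They are the near-identical Ifit3 and Ifit3b, Ifit1 and Gbp3 from among the genes furthest below vehicle, Isg15 and Bst2 for their overlapping matches, B2m for its small difference and Irf1 for a GAS without an ISRE. The sequences run from 5′ to 3′ on the strand of the gene and end at the base before the start, with matches to either motif in capitals.
Ifit1 (chr19:34640639-34640888, + strand): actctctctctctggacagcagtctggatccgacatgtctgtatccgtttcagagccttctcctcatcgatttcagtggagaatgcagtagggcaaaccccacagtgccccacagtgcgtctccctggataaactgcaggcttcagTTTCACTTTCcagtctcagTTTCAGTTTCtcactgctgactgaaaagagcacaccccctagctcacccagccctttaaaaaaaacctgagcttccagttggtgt
Ifit3 (chr19:34583279-34583528, + strand): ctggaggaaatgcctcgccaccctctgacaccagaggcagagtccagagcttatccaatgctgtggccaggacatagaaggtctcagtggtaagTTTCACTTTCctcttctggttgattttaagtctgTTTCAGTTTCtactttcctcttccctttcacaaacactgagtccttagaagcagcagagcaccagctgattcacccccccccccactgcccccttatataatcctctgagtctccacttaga
Ifit3b (chr19:34607707-34607956, + strand): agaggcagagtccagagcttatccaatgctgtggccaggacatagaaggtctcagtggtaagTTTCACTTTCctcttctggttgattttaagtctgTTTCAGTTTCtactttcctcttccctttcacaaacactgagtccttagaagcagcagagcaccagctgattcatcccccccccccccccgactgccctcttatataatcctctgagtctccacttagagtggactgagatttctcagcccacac
Isg15 (chr4:156200819-156201068, - strand): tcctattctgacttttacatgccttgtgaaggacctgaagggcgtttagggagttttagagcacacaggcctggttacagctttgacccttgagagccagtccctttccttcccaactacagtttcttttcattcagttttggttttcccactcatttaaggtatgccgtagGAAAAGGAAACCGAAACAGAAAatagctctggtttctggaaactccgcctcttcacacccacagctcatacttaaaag
Gbp3 (chr3:142559794-142560043, + strand): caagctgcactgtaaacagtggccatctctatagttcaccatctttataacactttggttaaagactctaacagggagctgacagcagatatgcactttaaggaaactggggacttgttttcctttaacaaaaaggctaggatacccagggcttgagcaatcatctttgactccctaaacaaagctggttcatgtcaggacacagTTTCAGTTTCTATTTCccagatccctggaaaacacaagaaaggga
Bst2 (chr8:71537473-71537722, - strand): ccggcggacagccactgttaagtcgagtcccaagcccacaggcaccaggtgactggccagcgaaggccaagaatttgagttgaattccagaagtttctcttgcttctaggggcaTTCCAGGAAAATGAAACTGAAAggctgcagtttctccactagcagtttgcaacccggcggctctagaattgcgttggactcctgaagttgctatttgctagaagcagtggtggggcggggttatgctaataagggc
B2m (chr2:122147437-122147686, + strand): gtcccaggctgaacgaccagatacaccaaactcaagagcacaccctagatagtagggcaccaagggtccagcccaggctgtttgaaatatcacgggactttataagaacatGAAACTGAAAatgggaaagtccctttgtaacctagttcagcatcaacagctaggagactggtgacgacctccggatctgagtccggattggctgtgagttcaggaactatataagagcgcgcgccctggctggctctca
Irf1 (chr11:53769764-53770013, + strand): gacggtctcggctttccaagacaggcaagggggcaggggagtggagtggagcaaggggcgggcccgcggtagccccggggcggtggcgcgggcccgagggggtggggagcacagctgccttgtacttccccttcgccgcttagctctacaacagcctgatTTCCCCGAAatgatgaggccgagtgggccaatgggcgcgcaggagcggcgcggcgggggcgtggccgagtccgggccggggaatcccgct
In Ifit1 the ISRE matches began 104 and 85 bases before the start, and in Ifit3 156 and 122 bases before it. Ifit3b held a pair with the same spacing as Ifit3, at 188 and 154 bases. Isg15 carried 3 overlapping matches at 78, 72 and 66 bases, and Gbp3 2 overlapping ones at 45 and 39 bases. In Bst2 the capitals span a GAS at 136 bases that overlaps ISRE matches at 130 and 124 bases. B2m held 1 ISRE at 139 bases, and Irf1, itself a factor that binds such elements, held only a GAS at 90 bases.

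To ask how the arms differed, UMIs of each gene were summed over the feeder cells of a library, and EV 1 was set against the vehicle mean. A gene was counted when it had at least 50 UMIs over the 3 feeder sums, and called when EV 1 was at least 2-fold from the vehicle mean and outside the vehicle range. Of the 41 genes, 37 were counted, 19 were called lower in EV 1 and 0 higher. Among all 12875 counted genes, 4.94% were called lower and 2.41% higher. The median log2 ratio was −1.02 over the 37 and −0.13 over all genes. EV 1 lay below both vehicle libraries for 36 of the 37 genes and for 56.9% of all genes. The called gene nearest the 2-fold limit was Usp18 at −1.02 on the log2 scale, and the nearest gene not called was Ifi35 at −0.93. The 11 fibroblast markers counted, which mark the feeder class itself, had a median log2 ratio of −0.46, with 1 called lower (Postn) and 0 higher. Bgn was at 414, 418 and 251 CPM, Col3a1 at 180, 191 and 122 CPM and Pdgfra at 168, 171 and 113 CPM (−0.73, −0.60 and −0.58), and the part of this shift in the results was not tested. In what follows, 3 values in a row are CPM in the feeder cells of vehicle 1, vehicle 2 and EV 1 unless another unit is named, and ratios are EV 1 to the pooled vehicle libraries with intervals that cover counting error only.

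**Figure D1:**
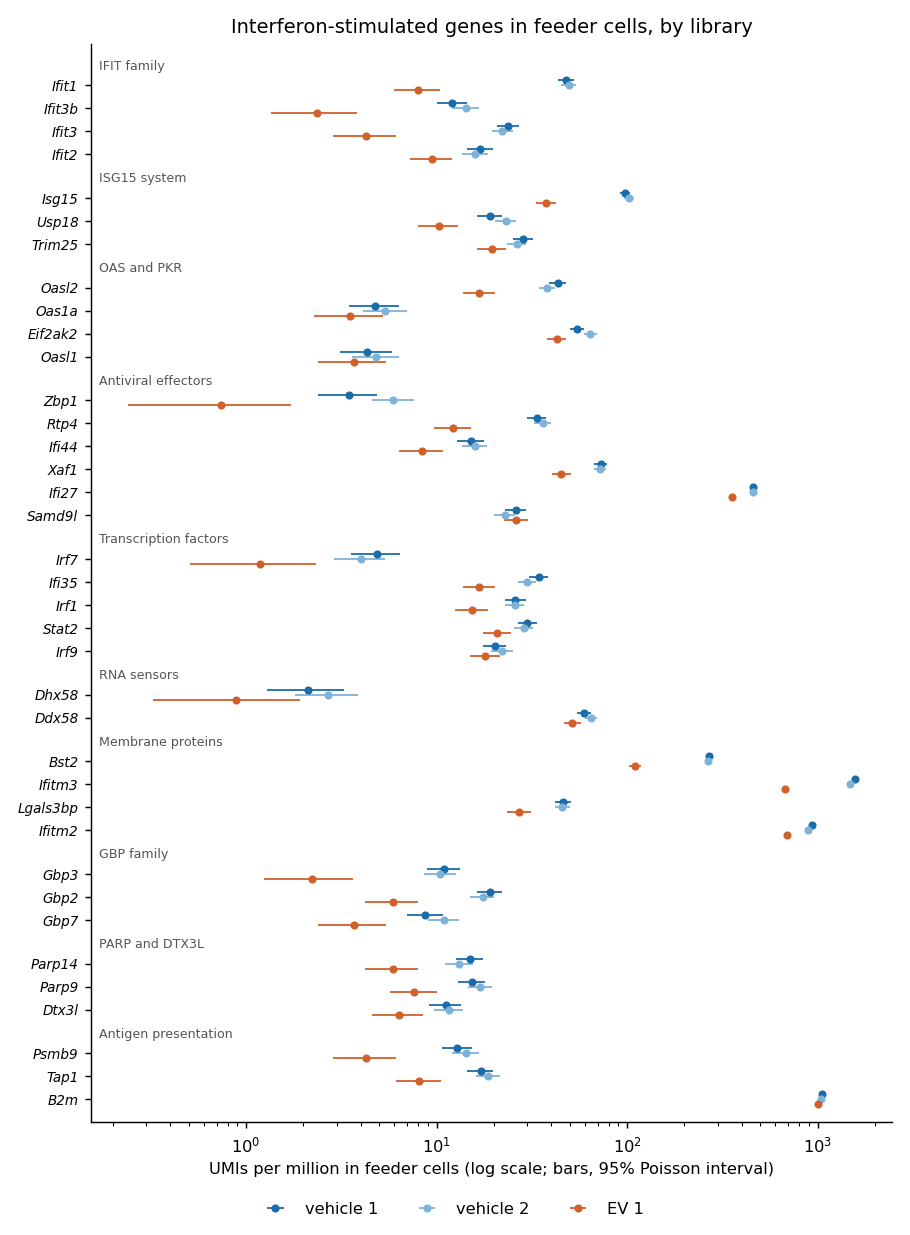
CPM (log axis) in feeder cells for the 37 genes counted, grouped by role, with 1 point per library and its 95% Poisson interval. The 2 vehicle libraries lie close together for most genes, and EV 1 lies to their left for all genes except Samd9l.

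The IFIT genes encode proteins that bind foreign RNA and hinder its translation. Their 4 genes lie side by side on chromosome 19 (chr19:34550694-34650009, GRCm38). Ifit1 stood at 47.9, 49.3 and 7.95 CPM, from 455, 531 and 54 UMIs (log2 ratio −2.60, ratio 0.163, 95% interval 0.122 to 0.215). Ifit3 stood at 23.8, 22.2 and 4.27 CPM (−2.41 on the log2 scale, ratio 0.186, 95% interval 0.123 to 0.271). Ifit3b stood at 12.1, 14.2 and 2.35 CPM (−2.44, ratio 0.178, 95% interval 0.10 to 0.295). In these 3 genes both vehicle libraries were high and EV 1 was over 4-fold lower, with no overlap of the Poisson intervals. The transcripts of Ifit3 and Ifit3b were 98% identical over 1697 aligned bases, so the split of UMIs between them is uncertain. Ifit2, the other gene of the cluster, was at 16.9, 16 and 9.42 CPM (−0.80), below both vehicle libraries but within 2-fold. Summed over the family, the level was 100.7, 102 and 24.0 CPM.

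Isg15 encodes a ubiquitin-like protein that is attached to other proteins and also secreted. It stood at 97.4, 102 and 37.5 CPM (−1.41, ratio 0.376, 95% interval 0.329 to 0.428). Usp18, the protease that removes Isg15 from its targets and damps the interferon receptor, was at 19, 23 and 10.3 CPM (−1.02). Trim25, a ligase for Isg15 and ubiquitin that activates RIG-I, was at 28.4, 26.4 and 19.6 CPM (−0.48, ratio 0.716, 95% interval 0.588 to 0.867). Isg15 and Usp18 passed the 2-fold limit and Trim25 did not, and without vehicle 2 Usp18 was within it (−0.88).

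Oligoadenylate synthetases that are active as enzymes make the messenger that activates RNase L, and not every gene of the family encodes an active one. Eif2ak2 encodes PKR, the RNA-activated kinase that stops translation. Oasl2 was the only gene of this role past the limit, at 43.1, 38 and 16.8 CPM (−1.27). Its neighbour Oasl1 was at 4.31, 4.82 and 3.68 CPM (−0.30, ratio 0.802, 95% interval 0.494 to 1.26), and Oas1a at 4.74, 5.38 and 3.53 CPM (−0.50). For Oasl1 and Oas1a the interval of the ratio included 1, so no difference was detectable at this depth. Eif2ak2 was at 54.5, 64.2 and 42.7 CPM (−0.47, ratio 0.715, 95% interval 0.627 to 0.814).

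Other antiviral effectors spread widely. Zbp1, a sensor of Z-form nucleic acid that can trigger cell death, was at 3.47, 5.94 and 0.736 CPM from 33, 64 and 5 UMIs (−2.55, ratio 0.154, 95% interval 0.0488 to 0.371). The vehicle libraries themselves stood 0.76 apart on the log2 scale for Zbp1, the widest vehicle gap of the 37 genes. Rtp4, a receptor chaperone that limits flavivirus replication, was at 33.6, 36.1 and 12.2 CPM (−1.51). Ifi44 was at 15.2, 15.9 and 8.39 CPM (−0.88), and Xaf1, which opposes the apoptosis inhibitor XIAP, at 72.7, 71.9 and 45.2 CPM (−0.68). These were lower in EV 1 than in both vehicle libraries, Zbp1 and Rtp4 past 2-fold. Ifi27, a mitochondrial protein, was at 459, 457 and 356 CPM (−0.37, ratio 0.776, 95% interval 0.742 to 0.812). Samd9l, a restriction factor, was the exception of all 37, at 26.1, 22.7 and 26.2 CPM (0.10, ratio 1.08, 95% interval 0.902 to 1.28), with EV 1 level with vehicle 1. Rsad2, which encodes viperin, had 19, 20 and 5 UMIs and was not counted.

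Among the transcription factors of the response, the size of the difference varied. Irf7, the factor that amplifies interferon production, was at 4.84, 3.99 and 1.18 CPM from 46, 43 and 8 UMIs (−1.84, ratio 0.268, 95% interval 0.112 to 0.552). Irf1 was at 25.9, 25.7 and 15.3 CPM (−0.75, ratio 0.593, 95% interval 0.476 to 0.734), and Stat2 at 30, 28.7 and 20.7 CPM (−0.50, ratio 0.708, 95% interval 0.585 to 0.852). Irf9, the DNA-binding partner of Stat2, was at 20.2, 22.1 and 18 CPM (−0.23, ratio 0.847, 95% interval 0.687 to 1.04). Irf7 alone passed the limit, and the interval of Irf9 included 1. Ifi35, a leucine-zipper protein that is only grouped with these factors here, was at 34.3, 29.9 and 16.8 CPM (−0.93). Reads of Irf9 may be shared with the overlapping Rnf31 on the same strand, and likewise those of Rtp4 with Gm45338, of Gbp7 with Gm43802 and of Ifitm2 with Gm45717.

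Among the RNA sensors, Ddx58 (RIG-I) was at 59.7, 64.6 and 51.6 CPM (−0.27, ratio 0.829, 95% interval 0.735 to 0.934). Dhx58 (LGP2) was called lower at 2.10, 2.69 and 0.883 CPM (−1.36), on 20, 29 and 6 UMIs. It came within 2-fold under 2 of 15 alternatives, at −0.12 in feeder cells under the median metallothionein share. Ifih1 (MDA5) had 8, 13 and 3 UMIs and was not counted. Counts this low leave wide intervals, and for Dhx58 that of the ratio ran from 0.128 to 0.854.

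The membrane proteins carried the most UMIs. Ifitm3, which bars virus fusion at endosomes, was at 1564, 1474 and 675 CPM (−1.17, ratio 0.445, 95% interval 0.431 to 0.459). Its neighbour Ifitm2 was at 935, 889.7 and 687 CPM (−0.41, ratio 0.754, 95% interval 0.730 to 0.779). Bst2, the tetherin that holds budding virions at the cell surface, was at 269, 266 and 110.4 CPM (−1.28, ratio 0.413, 95% interval 0.382 to 0.445). Ifitm3 and Bst2 were thus more than 2-fold lower in EV 1, and the intervals of the ratios of Ifitm2 and Ifitm3 did not overlap. Lgals3bp, a secreted galectin ligand, was at 46.1, 45.7 and 27.1 CPM (−0.76). Ifitm1 had 9, 8 and 7 UMIs in feeder cells and was not counted.

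All 3 guanylate-binding proteins, GTPases that attack the vacuoles of intracellular pathogens, were called lower. Gbp3 was at 10.9, 10.5 and 2.21 CPM (−2.24, ratio 0.206, 95% interval 0.114 to 0.348), Gbp2 at 19, 17.4 and 5.89 CPM (−1.62, ratio 0.324, 95% interval 0.227 to 0.449) and Gbp7 at 8.73, 10.9 and 3.68 CPM (−1.40). Parp14, an ADP-ribosyltransferase, was at 14.9, 13.2 and 5.89 CPM (−1.24). Parp9 and its partner ligase Dtx3l, which lie on opposite strands and overlap, were at 15.3, 17 and 7.65 CPM (−1.07) and at 11.2, 11.6 and 6.33 CPM (−0.84). Parp9 and Parp14 passed the limit and Dtx3l did not. Under 9 of 15 alternatives in processing Parp9 was within it (−0.78 at the nearest to 0), and Parp14 under 1 (−0.91).

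Of antigen presentation 3 listed genes were counted. Tap1, the peptide transporter, was at 17, 18.6 and 8.09 CPM (−1.13, ratio 0.452, 95% interval 0.334 to 0.602), and Psmb9, an immunoproteasome subunit, at 12.8, 14.2 and 4.27 CPM (−1.64, ratio 0.315, 95% interval 0.207 to 0.462). B2m, the light chain of class I molecules, was at 1057, 1036 and 1009 CPM (−0.05, ratio 0.965, 95% interval 0.939 to 0.992). EV 1 was thus more than 2-fold below vehicle for Tap1 and Psmb9 and close to it for B2m, which stood at −0.54 in feeder cells under the median metallothionein share. The class I heavy chains H2-K1 and H2-D1, which are not in the list and were named after their values were seen, were at 753, 737 and 573 and 334, 341 and 245 CPM (−0.38 and −0.46), below both vehicle libraries and within 2-fold. Psmb8, a further immunoproteasome subunit, had 4, 7 and 2 UMIs and was not counted.

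**Figure D2:**
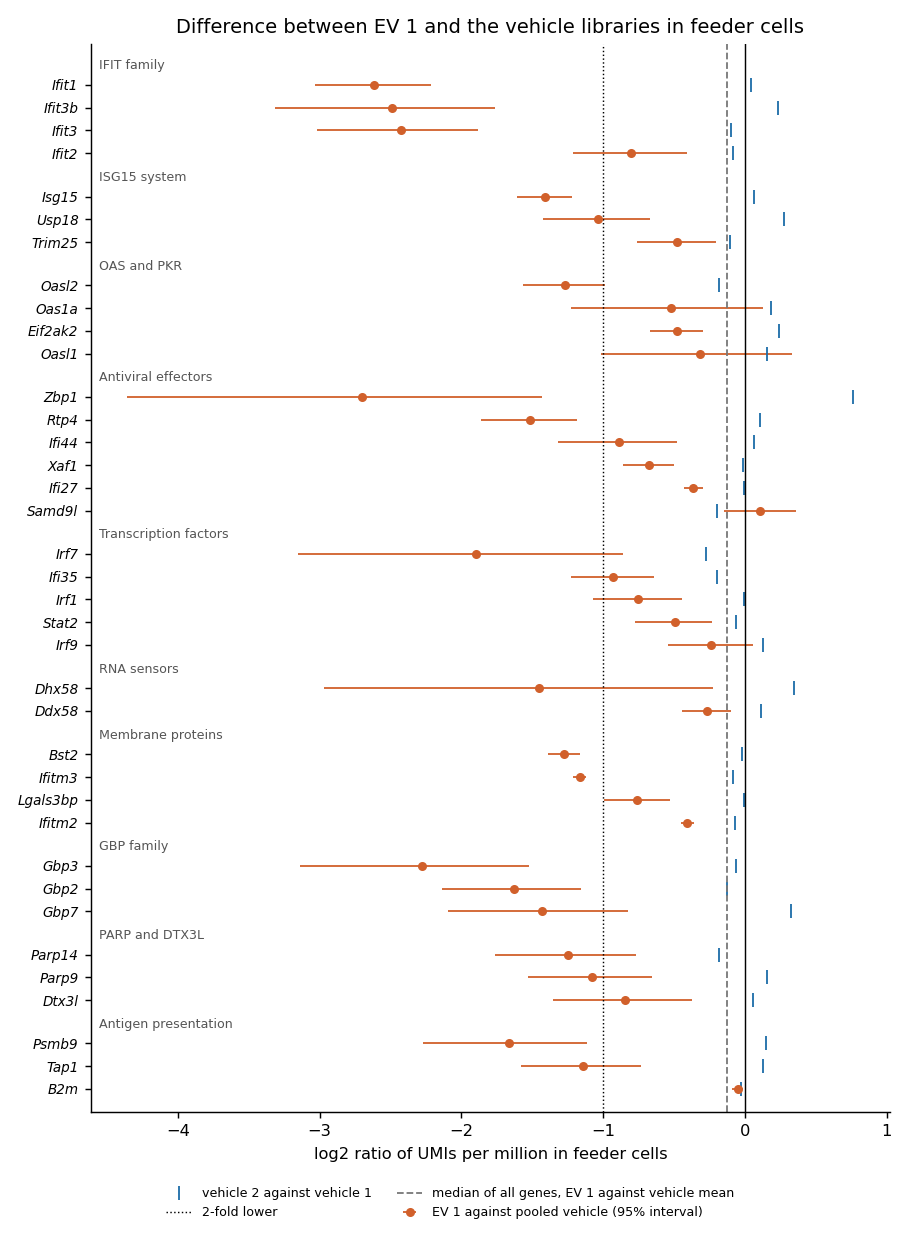
Log2 ratio of EV 1 to the pooled vehicle libraries in feeder cells for the 37 genes counted (points with 95% intervals for counting error), beside the log2 ratio of vehicle 2 to vehicle 1 (ticks), the 2-fold limit (dotted) and the median of all genes at −0.13 (dashed). Ifit1, Ifit3, Ifit3b, Zbp1 and Gbp3 lie furthest to the left and B2m and Samd9l nearest to 0.

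Among counted genes whose promoter window could be read, 8 of 12 with an ISRE core and 5 of 18 without one were called lower, with median log2 ratios of −1.40 and −0.78. For the GAS the split ran the other way, with 2 of 6 genes that held one and 11 of 24 without one called lower, at medians of −0.77 and −0.91. These splits were not tested. For the ISRE, exceptions stood on both sides. B2m, whose window is shown above, held an ISRE and was at −0.05, whereas Irf7 and Ifitm3 were called lower and had no match to these letters in this window. A match is a description and not a map of binding.

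Other genes of the pathway were followed from the ligands to the targets. Of 21 interferon genes, 15 had no UMI in any feeder sum and none reached 50, and all 21 together gave 2, 9 and 5 UMIs. The receptor chains Ifnar1 and Ifnar2 were at 20, 19.9 and 29.7 and at 52.1, 48.2 and 38.5 CPM (0.57 and −0.38), and Jak1 at 177, 177 and 177 CPM. Of 13 counted sensing genes, 0 were called in either direction, with a median log2 ratio of −0.33. Of 47 other interferon-stimulated genes that were counted, 15 were called lower and 0 higher, with a median of −0.62. Cxcl10, a chemokine for T cells, was at 14.4, 12.5 and 1.47 CPM (−3.13), Gbp6 at 10.9, 10.1 and 2.94 CPM (−1.81) and Psmb10, the remaining immunoproteasome subunit, at 21.4, 19.7 and 6.77 CPM (−1.59). Ifi47 and Igtp, GTPases of the immunity-related family, were at 2.84, 3.43 and 1.03 and at 8.63, 9.46 and 3.09 CPM (−1.53 and −1.52). Ligands were thus near the detection floor in all libraries, and the receptor chains Ifnar1 and Ifnar2 and Jak1 lay within 2-fold. Calls were found among genes listed as targets. Ifnar1, Ifnar2 and Jak1 are a part of 17 listed receptor and signalling genes and were named after their values were seen. No contrast between that list and the targets is drawn from them.

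The share of cells that carried these RNAs was measured with a core of 17 genes (Ifit1, Ifit2, Ifit3, Ifit3b, Isg15, Rsad2, Usp18, Oasl1, Oasl2, Oas1a, Irf7, Ifi44, Rtp4, Zbp1, Dhx58, Xaf1 and Samd9l), in cells thinned to 1000 UMIs each. Shallower cells were left out, 86, 55 and 186 feeder cells. Feeder cells with at least 1 core UMI made up 28.0% (exact binomial interval 26.2 to 29.9) in vehicle 1 and 26.5% (24.8 to 28.4) in vehicle 2, against 16% (14.5 to 17.5) in EV 1. The difference of EV 1 from the vehicle mean was −11.3 percentage points, with an SD of 1.03 points between the vehicle libraries. Without thinning the shares were 59.8%, 61.5% and 32.7%. Germ cells, which had median depths of 1936, 2099 and 1325 UMIs before thinning, gave 5.99%, 5.25% and 3.93% at 1000 UMIs, and all feeder shares lay above these. Thinned to 2000 UMIs, germ cells gave 11.3%, 10.1% and 23.1%, and feeder cells 45.0%, 44.4% and 27.2%. The germ share of EV 1 then rested on 6 of 26 cells, with an exact interval of 8.97 to 43.6 that includes its feeder share.

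Feeder cells with several core UMIs differed more in proportion. At least 3 core UMIs were found in 3.01%, 3.26% and 0.473% of feeder cells. At least 5 were found in 0.752%, 0.867% and 0.172%, from 17, 21 and 4 cells. Positive feeder cells held 1.55, 1.57 and 1.19 core UMIs on average. In EV 1, then, a smaller share of cells was positive, and the mean over positive cells was lower. Of single genes, Ifitm3 was found in 66.8, 64.2 and 40.8% of feeder cells, Bst2 in 21.4, 20.8 and 9.72%, Isg15 in 7.26, 7.35 and 3.06%, Ifit1 in 3.94, 3.43 and 0.731% and B2m in 58.4, 58.4 and 57.3%.

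**Figure D3:**
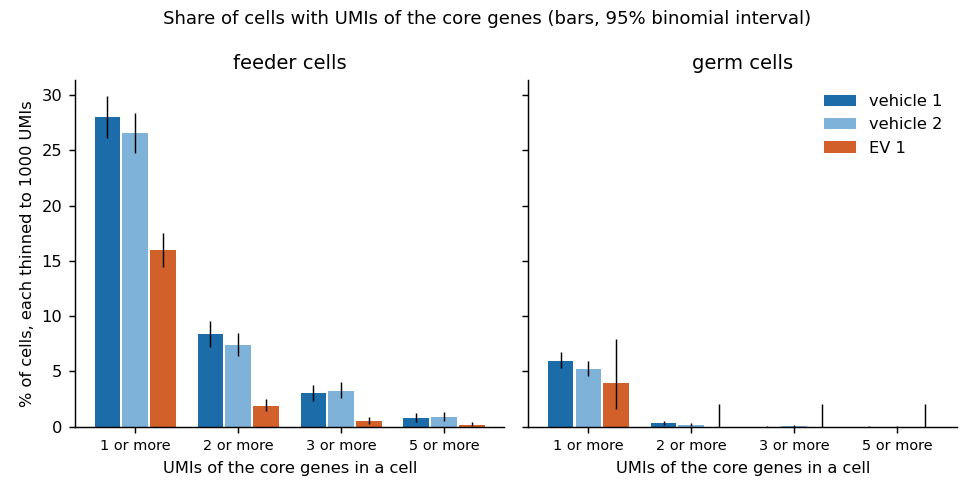
Share of feeder cells (left) and germ cells (right) with at least 1, 2, 3 and 5 UMIs of the core genes, each cell thinned to 1000 UMIs, per library with exact 95% binomial intervals. EV 1 is below both vehicle libraries at each count in feeder cells, and germ cells rarely hold more than 1.

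Whether these RNAs occurred in the same feeder cells was read from 8 genes set beside Ifit1. Of feeder cells with an Ifit1 UMI (89, 83 and 17 cells), 12.4%, 16.9% and 17.6% also held Ifit3, against 1.61%, 0.812% and 0.520% of those without. For Isg15 the shares were 23.6%, 24.1% and 11.8% with Ifit1 and 6.59%, 6.76% and 2.99% without. In both vehicle libraries the exact intervals with and without Ifit1 did not overlap for the core genes Ifit3, Isg15, Oasl2 and Xaf1, nor for Bst2, which is outside the core. They overlapped in both for the core gene Rtp4 (5.62% and 7.23% with Ifit1, 3.32% and 3.51% without) and for Ddx58, also outside the core (10.1% and 10.8% against 5.67% and 6.54%). For Usp18 they overlapped in vehicle 1 (2.25% against 1.47%) and not in vehicle 2 (9.64% against 1.71%). In EV 1, with 17 such cells, the intervals did not overlap for Ifit3 and Xaf1 and overlapped for the others, and 0 of the 17 held Rtp4 or Oasl2. The counts are from cells of 1 library each and describe that library.

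The difference in level was then followed through subsets of the feeder cells, because feeder cells of EV 1 were shallower and higher in metallothioneins. Over all feeder cells the core genes summed to 429, 436 and 191 CPM, a ratio of 0.442 (95% interval 0.417 to 0.469). In cells from 1000 to under 2000 UMIs the sums were 377, 341 and 184 CPM, in those from 2000 to under 4000 UMIs 448, 418 and 196 CPM, and in those of 4000 UMIs or more 427, 449 and 188 CPM. The ratios were 0.512, 0.453 and 0.429, and EV 1 was below both vehicle libraries in each depth range. Feeder cells under the median share of metallothionein UMIs gave 429.6, 421 and 199.8 CPM, a ratio of 0.470 (0.417 to 0.529). Those at or above the median gave 429, 462 and 189 CPM, a ratio of 0.423 (0.394 to 0.454). In each group the interval of the core ratio overlapped that of all feeder cells. In the group with fewer metallothionein UMIs the median of all genes stood at 0.12 and that of the 37 genes at −0.91. Ifit1 was at −4.07, −2.27 and −2.40 on the log2 scale in the depth ranges, and Isg15 at −0.50, −1.29 and −1.50. Of the 19 genes called lower over all feeder cells, 8 (Ifit1, Ifit3, Ifit3b, Rtp4, Bst2, Gbp3, Gbp7 and Psmb9) stayed past 2-fold under each of 15 alternatives, these subsets included.

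**Figure D4:**
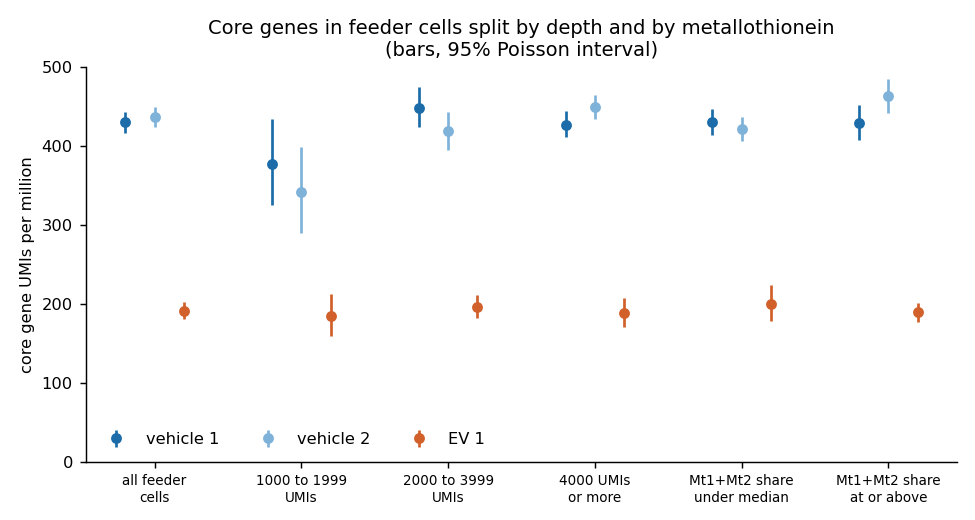
Summed CPM of the core genes in feeder cells, over all cells, in 3 ranges of depth and in 2 ranges of the share of metallothionein (Mt1 and Mt2) UMIs, per library with 95% Poisson intervals. EV 1 lies between 184 and 199.8 and the vehicle libraries lie between 341 and 462.

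To ask where these genes are expressed in the vehicle-treated cultures, feeder cells were compared with germ cells of the vehicle libraries by edgeR's quasi-likelihood test with the library as a block and Benjamini-Hochberg adjustment over 15240 genes. Of 41 genes tested, 31 were higher in feeder cells and 3 higher in germ cells, at an adjusted p under 0.05 and at least 2-fold. Of all genes, 27.3% were higher in feeder cells and 27.5% in germ cells. This test used libraries that also entered the choice of the genes, and the classes were set by 8 other genes. TMM scaling moved the median log2 difference of all genes by 0.39 relative to CPM, and that of the 41 genes from 2.02 to 2.41. The sign of Trim25 and Irf1, which were not called, flipped between CPM and TMM.

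Ifit1 stood at 47.9 and 49.3 CPM in feeder cells and 1.38 and 2.08 CPM in germ cells (log2 difference 5.17, edgeR adjusted p 2.88e-27). Isg15 was at 97.4 and 102 CPM in feeder cells and 10.6 and 8.86 CPM in germ cells (3.76, edgeR adjusted p 3.21e-30). Ifitm3 was at 1564 and 1474 CPM in feeder cells and 111 and 82.2 CPM in germ cells (4.37, edgeR adjusted p 1.9e-36). In droplet data, free RNA gives UMIs in cells that do not express a gene. The 11 fibroblast markers measured had germ cell levels of 3.41% to 156% of those in feeder cells, with a median of 10.6%. At or under this median were 15 of the 37 genes (Ifit1, Ifit3, Ifit3b, Isg15, Usp18, Zbp1, Xaf1, Samd9l, Ifi44, Rtp4, Irf7, Ddx58, Ifitm2, Ifitm3 and Lgals3bp), and the part of free RNA in their germ cell values was not tested. Trim25 and Irf1 stood in germ cells at 130.2% and 117% of their feeder level, and Dhx58 higher still. Transcription factors had UMIs in both classes, with Stat2 at 30 and 28.7 CPM in feeder cells and 12 and 13.1 CPM in germ cells (1.61, edgeR adjusted p 4.65e-16) and Irf1 at 25.9 and 25.7 CPM in feeder cells and 29.8 and 30.5 CPM in germ cells (0.16, edgeR adjusted p 0.087).

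The 3 genes higher in germ cells did not share a role. Ifitm1, a relative of Ifitm3 that is known from primordial germ cells, was at 0.947 and 0.742 CPM in feeder cells and 38.2 and 36.2 CPM in germ cells (−5.06, edgeR adjusted p 2.93e-23). Dhx58 was at 2.10 and 2.69 CPM in feeder cells and 9.94 and 11.8 CPM in germ cells (−1.79, edgeR adjusted p 7.99e-10), and Psmb8 at 0.421 and 0.649 CPM in feeder cells and 2.96 and 3.62 CPM in germ cells (−2.20, edgeR adjusted p 1.03e-05). Within the cluster of Ifitm genes on chromosome 7, Ifitm1 thus stood on the opposite side from Ifitm2 (4.15) and Ifitm3. The tested genes that were not called were Trim25, Oasl1, Irf1, Ifih1, Parp9, Dtx3l and Psmb9.

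**Figure D5:**
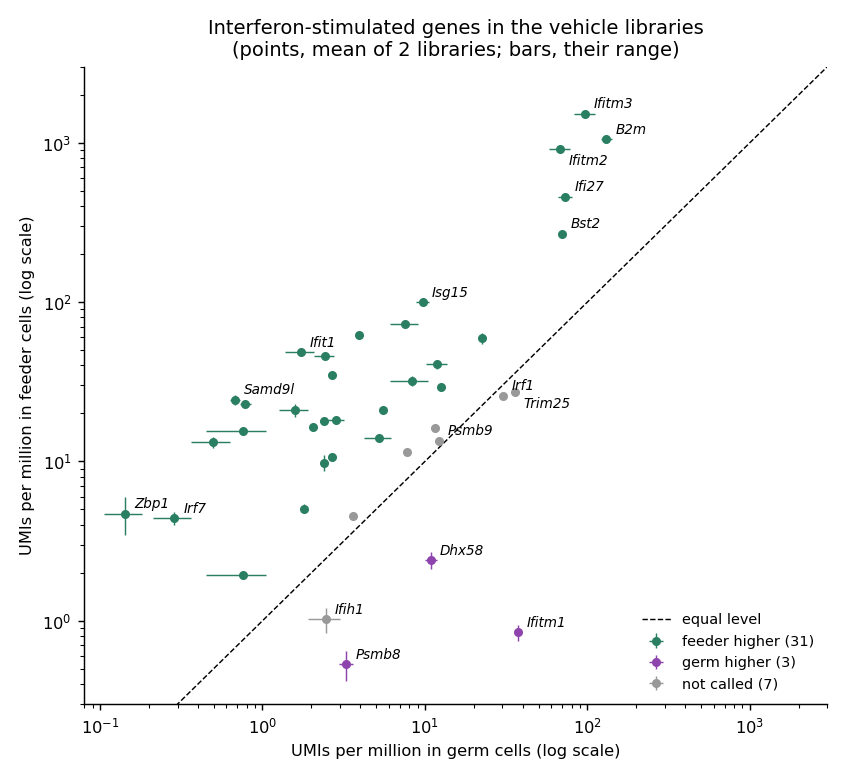
Mean CPM of 41 genes in feeder cells against germ cells of the 2 vehicle libraries (log axes, bars give the range of the libraries), coloured by the edgeR call. Most points lie above the line of equal level. Below it lie Ifitm1, Dhx58 and Psmb8, which were called higher in germ cells, and Trim25, Irf1 and Ifih1, which were not called, Trim25 and Irf1 with the opposite sign under TMM.

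In germ cells the arms could be compared for few genes, since EV 1 held 226 germ cells with 324434 UMIs in all. Of 30 genes with at least 50 UMIs over the libraries, 2 were called lower and 6 higher, against 6.86% and 11.5% of all counted genes. All of these calls except that of Ifitm1 rest on 3 or fewer UMIs in EV 1. The core genes summed to 61.4, 53.6 and 67.8 CPM, with an interval of 42.5 to 103 in EV 1. The summed core level in germ cells of EV 1 was therefore not distinguishable from that of vehicle. Ifitm1 was at 38.2, 36.2 and 74 CPM in germ cells, from 361, 401 and 24 UMIs (ratio 1.99, 95% interval 1.27 to 2.99), while feeder cells held about 1 CPM in each library. Ifitm3 was at 111, 82.2 and 86.3 CPM (ratio 0.903, 95% interval 0.599 to 1.31). Fibroblast markers in germ cells stood at a median of 11.5%, 9.67% and 19.0% of their feeder level, and their part in these values was not tested.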

How the data were processed

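The authors counted UMIs with Cell Ranger 7.0.1 on mm10 (GENCODE vM23) and deposited raw counts per gene and barcode, unnormalised. Groups and replicate numbers came from sample titles, and libraries shared 11 to 22 barcodes per pair. The genes and lists were chosen with earlier results of these data known. Deposited barcodes summed to 23686047, 27444797 and 10793232 UMIs in vehicle 1, vehicle 2 and EV 1. As in the study's methods, a cell needed more than 400 genes, fewer than 4000 and less than 10% of its UMIs from mitochondrial genes. From these were removed the top Scrublet scores (scanpy 1.11.5) at 0.8% per 1000 cells, leaving 8263, 8637 and 4779 cells. UMIs were summed per library and class, and 0.5 UMI was added to each sum for log2 ratios. Intervals (Poisson, conditional or binomial, 95%) cover counting error only. Classes were compared with edgeR 4.0.16 (TMM, library block), with DESeq2 1.42.0 as an alternative, at an adjusted p of 0.05 and 2-fold. The p-values rest on the spread between 2 vehicle libraries, which the study describes as independent. With so few libraries, edgeR moderates this spread across all genes, and the p-values depend in large part on that shared estimate. Scripts were tested on simulated data. All genes of the list are accounted for. Values in full were given for the 8 highest and 8 lowest log2 ratios in feeder cells and for B2m, the Ifitm genes, Stat2, Irf9, Irf7 and Irf1. Of pathway lists, up to 5 called genes per direction were named, 1 item is not reported here, and the receptor chains, Jak1 and Ptprc were named after their values were seen. Positions and overlaps came from GENCODE vM21 (GRCm38).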

Additional observations from a re-analysis of the deposited data

Results flagged for a closer look

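For 4 genes EV 1 lay below both vehicle libraries in feeder cells and above both in germ cells. The difference between the classes was not tested, since there was 1 EV library. Only genes with at least 10 UMIs in the germ cells of EV 1 were looked at. In germ cells Bst2 stood at 68.3, 70.5 and 108 CPM in vehicle 1, vehicle 2 and EV 1 (log2 ratio 0.66, against −1.28 in feeder cells), from 646, 780 and 35 UMIs. B2m stood at 142, 120.4 and 200.3 CPM in germ cells (0.62, against −0.05), from 1338, 1332 and 65 UMIs. Its small difference in feeder cells had the other sign under 5 of 15 alternatives in processing. Ifitm2 was at 77.7, 57.8 and 102 CPM in germ cells (0.61, against −0.41), from 735, 640 and 33 UMIs. Irf1 was at 29.8, 30.5 and 40.1 CPM in germ cells (0.46, against −0.75), from 282, 337 and 13 UMIs. The ratios of EV 1 to pooled vehicle in germ cells were 1.55, 95% interval 1.08 to 2.17 (Bst2), 1.54, 95% interval 1.19 to 1.97 (B2m), 1.52, 95% interval 1.04 to 2.14 (Ifitm2) and 1.33, 95% interval 0.703 to 2.29 (Irf1). In the same germ cells the fibroblast markers summed to 260, 237 and 361 CPM, and their part in these differences was not tested.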

How the results depend on the processing

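In feeder cells the number of genes called lower in EV 1 was 15 to 21 over all alternatives, against 19, and 0 were called higher in any. The median log2 ratio, −1.02 as reported, was −0.96 with TMM factors, −0.93 with DESeq2 size factors, −1.08 as a mean over cells, −1.06 with a class minimum of 4 UMIs, −0.92 with doublets kept, −0.93 with all deposited barcodes, −1.02 with 1 UMI added and −0.98 at 200 UMIs or more. Without either vehicle replicate it was −1.13 to −0.99. Alternatives added after seeing the data gave −0.92 with other class markers, −0.95, −1.06 and −0.95 in rising depth ranges, and −0.91 and −0.87 under and above the metallothionein median. The 19 called genes kept their sign under all 15 alternatives, and of the 37 genes 31 did. The exceptions were B2m, Ddx58, Irf9, Oas1a, Oasl1 and Samd9l. Of the 19, 11 came within 2-fold under at least 1 alternative. Under the metallothionein median these were Dhx58 (−0.12), Gbp2 (−0.83), Oasl2 (−0.81), Parp14 (−0.91) and Tap1 (−0.98), from 1000 to under 2000 UMIs Isg15 (−0.50), Zbp1 (−0.86) and Ifitm3 (−0.96), and at 4000 UMIs or more Irf7 (−0.86) and again Dhx58 (−0.85). Usp18 did so under 8 alternatives, down to −0.88 without vehicle 2, and Parp9 under 9, −0.99 without vehicle 2 and −0.78 with other class markers, and the cause was not tested. The share of core-positive feeder cells differed by −11.3 percentage points as reported, by −17.5 at 2000 UMIs per cell, −27.9 without thinning, −12.4 with a class minimum of 4 and −2.66 for at least 3 core UMIs. Without either vehicle replicate it differed by −12 to −10.6 points.

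No paired analysis was possible because the EV arm had 1 library with expression. Between feeder and germ cells, leaving out the replicate block gave the same 31 and 3 calls. DESeq2 gave 30 and 3 calls, and the other alternatives gave 30 or 31 higher in feeder cells and 2 to 4 higher in germ cells. Leaving out either vehicle library left 1 pair and no test. Calls in EV 1 rest on few UMIs for Dhx58 (6), Zbp1 (5) and Irf7 (8), and depth limits all germ cell values of EV 1.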

Other observations

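Cells in neither class were 1497, 1380 and 2043 in vehicle 1, vehicle 2 and EV 1, with median depths of 1354, 1407 and 1177 UMIs. The core genes summed to 244, 260.3 and 183 CPM in them. Ifit1 stood at 10.9, 20.6 and 8.27 CPM, Isg15 at 48.4, 41.7 and 30.0 CPM and Bst2 at 129, 119.6 and 78.9 CPM. Ifitm3, the endosomal barrier protein, was at 589, 658 and 423 CPM, and B2m at 432, 416 and 603 CPM. For all of these except B2m, EV 1 lay below both vehicle libraries. These cells are not of 1 known type, and the makeup of the class in each library was not tested.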
